A study of Homo sapiens with 4 samples.

Results

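The 10 genes that encode the neuronal gene repressor REST and 9 regulators of neuronal splicing were examined for open chromatin in a pair of human prostate cancer lines. The genes were REST, SRRM4, SRRM3, PTBP1, PTBP2, NOVA1, ELAVL3, ELAVL4, CELF3 and KHDRBS2, 10 of 19689 protein-coding genes of the annotation. For each, every accessible interval over the gene and 50 kb on either side was taken, which gave 142 of 149676 intervals in C4-2B and 119 of 118728 in C4-2BER. The set was chosen by values of these same lists, namely where intervals lay, whether they were shared and how they ranked. The contrasts of those values between the lines are therefore a description, with no test.

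C4-2B is a prostate adenocarcinoma line. C4-2BER was derived from C4-2B by continuous exposure to enzalutamide, an androgen receptor inhibitor, carries a neuroendocrine-like phenotype and was kept under the drug. C4-2BER is a single derived line, so resistance, drug exposure and the history of that line cannot be told apart. ATAC-seq, in which the Tn5 transposase inserts adapters into open chromatin, was done on 2 libraries of each line, and the 2 were merged before peaks were called. No difference below therefore has a replicate check. The recovered depth was 30.2 M reads for the C4-2B list and 25.2 M for the C4-2BER list, so the C4-2B list reaches weaker sites. The labelled origin was checked on 5 prostate luminal genes (KLK3, KLK2, TMPRSS2, HOXB13 and FOLH1), and 5 of 5 had an open canonical transcription start site (TSS) in both lists.

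REST binds the RE1 element and recruits corepressors that keep neuronal genes silent outside neurons. SRRM4 and its paralog SRRM3 promote inclusion of short neuronal exons, and SRRM4 also redirects splicing of REST itself towards a truncated form with weaker repressor activity. PTBP1 represses neuronal exons in most tissues and gives way to PTBP2 during neuronal differentiation, while NOVA1, the Hu proteins ELAVL3 and ELAVL4, CELF3 and KHDRBS2 are RNA-binding proteins of neurons. In prostate cancer, SRRM4 is known for its expression in neuroendocrine tumours.

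The clearest contrast lay at the start sites of SRRM4, CELF3 and KHDRBS2. Their hg38 sequences upstream of the canonical TSS, 250 bases each, are shown because an interval covered each start in C4-2BER and none did in C4-2B. They are SRRM4 at chr12:118981291-118981540 (plus strand), KHDRBS2 at chr6:62286226-62286475 (minus strand) and CELF3 at chr1:151716874-151717123 (minus strand). Each is written 5′ to 3′ in the direction of the gene. The SRRM4 and KHDRBS2 sequences end 1 base before the TSS and that of CELF3 ends 71 bases before it. Capitals mark the 7 bases centred on the C4-2BER summit, each match of the E-box CAGCTG (KHDRBS2 and CELF3), and the RE1-like match at the 5′ end of the CELF3 sequence. The study's methods print the read shift used for peak calling without a minus sign. If it was run that way the summits are displaced, so summit bases and the distances measured from summits are those of the deposited list and not exact positions of open chromatin.
SRRM4: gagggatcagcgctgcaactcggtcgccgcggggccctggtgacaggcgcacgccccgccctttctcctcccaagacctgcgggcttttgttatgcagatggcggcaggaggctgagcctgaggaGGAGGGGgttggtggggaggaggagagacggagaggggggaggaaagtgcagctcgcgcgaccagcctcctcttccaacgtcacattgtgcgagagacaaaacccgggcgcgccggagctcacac
KHDRBS2: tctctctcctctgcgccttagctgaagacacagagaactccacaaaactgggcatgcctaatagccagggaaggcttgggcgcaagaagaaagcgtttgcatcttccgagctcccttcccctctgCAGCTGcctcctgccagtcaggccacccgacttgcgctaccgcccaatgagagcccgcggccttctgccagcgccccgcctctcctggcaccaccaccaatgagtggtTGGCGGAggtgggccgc
CELF3: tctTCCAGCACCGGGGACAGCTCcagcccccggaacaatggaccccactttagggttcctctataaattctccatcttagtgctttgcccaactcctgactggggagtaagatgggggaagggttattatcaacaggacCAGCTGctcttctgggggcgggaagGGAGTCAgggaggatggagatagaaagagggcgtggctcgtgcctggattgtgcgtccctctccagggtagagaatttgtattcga

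The E-box CAGCTG, which reads the same on both strands, is the form bound by many neuronal basic helix-loop-helix factors. It occurred in the 300 bases upstream of the canonical TSS in 3 members, CELF3, ELAVL3 and KHDRBS2, and in 15.4% of 19688 promoters of the same length. The SRRM4 sequence had no match. The forkhead letters TGTTTAC (either strand) were in 2.51% of promoters and in 0 of the members. The androgen response element, AGAACA and TGTTCT with 3 bases between and at most 1 mismatch, was in 0.152% and in 0 members.

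RE1 was searched as TTCAGCACC, 2 free bases and GGACAGCGC, on both strands, with at most 4 of 18 bases mismatched. The 10 loci held 14 such matches, of which 5 had at most 2 mismatches, against 785 of 20043 in the genome. The 5 are shown as the closest to the consensus, with a match of 3 mismatches that lay in an ELAVL3 promoter interval of both lists. The match in the ELAVL3 upstream flank lay in an interval at the promoter of the neighbouring gene ECSIT. Capitals mark bases that equal the consensus.
SRRM4 first exon, chr12:118981833-118981852: TTCAGCACtttGGACAGCGC
SRRM4 intron, chr12:119061401-119061420: TTCAGCACCagGGACAGCGa
CELF3 promoter, chr1:151717101-151717120: TcCAGCACCggGGACAGCtC
SRRM3 intron, chr7:76225551-76225570: TcCAGCACCacGGACAGCaC
ELAVL3 promoter, chr19:11481965-11481984: TTCAGCACCacaGACAGCaa
ELAVL3 upstream flank, chr19:11528623-11528642: TcCAGCACCaaGGACAGtGC

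A canonical TSS was called open when an interval came within 500 bp of it. By this measure 5 of 10 members were open in C4-2B and 8 of 10 in C4-2BER, beside 70.0% and 73.2% of all protein-coding genes. The 5 open in both lists were REST, SRRM3, PTBP1, PTBP2 and NOVA1. SRRM4, CELF3 and KHDRBS2 were open in C4-2BER only, 3 of 10 beside 4.90% of all genes, and 0 were open in C4-2B only, beside 1.70%. ELAVL3 and ELAVL4 were open in neither. These percentages are printed as background, and nothing is read from them because the members were picked on this contrast.

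The strength of an interval is given here as the whole number of reads over its summit, recovered from the deposited fold and p-value, as reads per M reads of depth (RPM) with a 95% Poisson interval (counting error only), and as a percentile of rank by −log10 p within its own list. Strongest here means the interval with the highest such percentile, which is not always the one with the most reads. A promoter interval is any that overlapped 2000 bp either side of a TSS of a protein-coding transcript. In 9 of 10 members the strongest promoter interval ranked higher in C4-2BER, as it did in 60.1% of the 16529 genes with such an interval in either list. A gene with no promoter interval in a list was counted at percentile 0 there, as were ELAVL4 and KHDRBS2 in C4-2B. Both lists held a promoter interval for 8 members (77.7% of all genes), C4-2BER alone for 2, ELAVL4 and KHDRBS2 (3.39% of all genes), and C4-2B alone for 0 (2.83%).

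**Figure D1:**
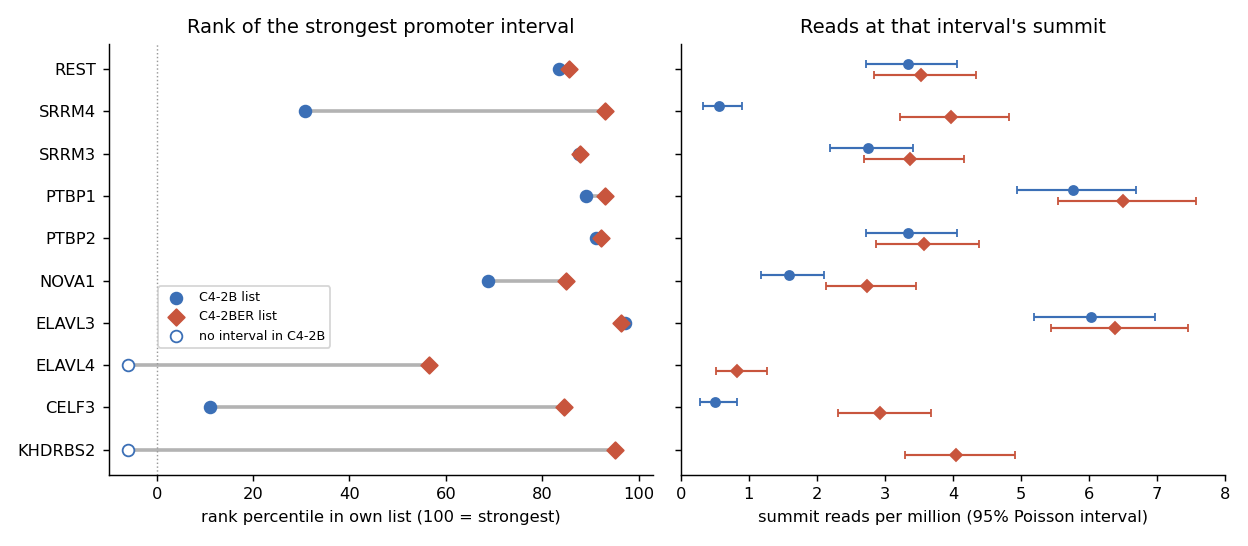
Strongest promoter interval of each member: left, rank percentile in the list of each line; right, summit RPM with 95% Poisson intervals, which cover counting error only. Open circles mark the 2 members with no promoter interval in C4-2B. In the left panel SRRM4, CELF3, KHDRBS2 and ELAVL4 have C4-2BER points far from C4-2B, and in the right panel ELAVL4 stays low, while REST, SRRM3, PTBP1, PTBP2 and ELAVL3 nearly coincide.

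REST, the repressor itself, was accessible in both lines to a like degree. A broad interval over its start, chr4:56907555-56909454 in C4-2B and chr4:56907494-56909466 in C4-2BER, held 101 and 89 summit reads. That was 3.35 (2.72 to 4.07) and 3.53 (2.83 to 4.34) RPM, at percentiles 83.5 and 85.6. The C4-2BER to C4-2B ratio was 1.05, with a counting interval of 0.784 to 1.42. C4-2B also listed a small separate interval 811 bp upstream of the TSS with 40 reads, which lay outside the broad C4-2BER interval.

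By rank, the strongest site of the REST locus in either line was not the promoter. It lay about 33.5 kb upstream, with 122 reads at percentile 96.9 in C4-2B and 116 reads at percentile 97.7 in C4-2BER. By reads it was the site at the promoters of the neighbouring genes NOA1 and POLR2B, 69.1 kb downstream, with 154 and 117 reads. The C4-2B list held 15 intervals here and the C4-2BER list 10. All 10 of the latter overlapped C4-2B intervals, beside 79.2% of the whole C4-2BER list. Part of the gap was one of splitting, since 13 shared C4-2B intervals faced those 10. Of 10 paired sites, 8 were lower in C4-2BER, as were 54852 of the 91168 pairs of the whole lists. In 2 of the 10 the counting interval lay below 1, beside 21.4% of all pairs. The largest drop was at 22.8 kb upstream, 27 reads against 9, although these summits lay 260 bp apart. An intron site 51.3 kb downstream of the TSS had 97 reads against 57, a ratio of 0.703 (0.498 to 0.985).

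SRRM4, the activator of neuronal microexons, has 1 annotated protein-coding start. In C4-2B the nearest interval to it was weak, with its summit 1612 bp upstream, 17 reads and percentile 30.9. In C4-2BER the interval chr12:118981040-118981836 covered the TSS, with its summit 122 bp upstream. It held 100 reads, 3.96 RPM (3.22 to 4.82), at percentile 93.0, and was the strongest interval of the locus in that list. At its local background in C4-2BER, scaled for depth, a C4-2B summit would have been listed from 21 reads on. The C4-2B background at the start is not known, and at the lowest background of that list 8 reads were enough. The weak upstream site was present in both lists, with 17 C4-2B reads and 29 C4-2BER reads (percentile 28.6), and C4-2BER added a further small promoter interval 717 bp upstream with 26 reads.

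Elsewhere in the SRRM4 locus sites moved both ways. The locus held 16 intervals in C4-2BER against 13 in C4-2B. Of the 16, 7 were C4-2BER-only, and of the 13, 4 were C4-2B-only. Over the whole lists 79.2% of C4-2BER and 62.3% of C4-2B intervals were shared, and the rest were line-only. No other member locus had more in C4-2BER by the whole lists, but with equal numbers of top intervals 6 of the 10 loci did, SRRM4 among them with 16 against 11. Near the 3′ end of the gene, 173 kb from the TSS, a C4-2BER-only intron interval held 60 reads at percentile 81.4. A neighbouring intron site 172 kb from the TSS was shared, with 43 C4-2B reads and 78 C4-2BER reads, a ratio of 2.17 (1.48 to 3.23). Of 4 paired sites in the gene body, 2 were higher in C4-2BER, both with a counting interval above 1, and 2 were lower, with 0 below 1. Over the whole locus, promoter and downstream flank included, 6 of 9 pairs were higher and in 4 the counting interval lay above 1. Over all 91168 pairs, 36316 were higher and 5.33% had a counting interval above 1. The strongest C4-2B interval of the locus, with 91 reads at percentile 87.3, lay at the promoter of the neighbouring gene HSPB8 and was matched by 88 reads in C4-2BER.

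Both RE1-like sequences of SRRM4 differ from the consensus at 1 base. The match in the first exon (5′ untranslated region) begins within the C4-2BER start interval, but only 4 of its bases lie inside, and it was outside every C4-2B interval. The intron match, 79.9 kb downstream, lay within a modest interval in both lists, with 26 C4-2B reads and 20 C4-2BER reads, a ratio of 0.920 (0.487 to 1.71). Its distance to the summit was 26 bp in C4-2B and 51 bp in C4-2BER. So the intronic match was accessible in both lines, while accessibility around the start was listed in C4-2BER only.

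**Figure D2:**
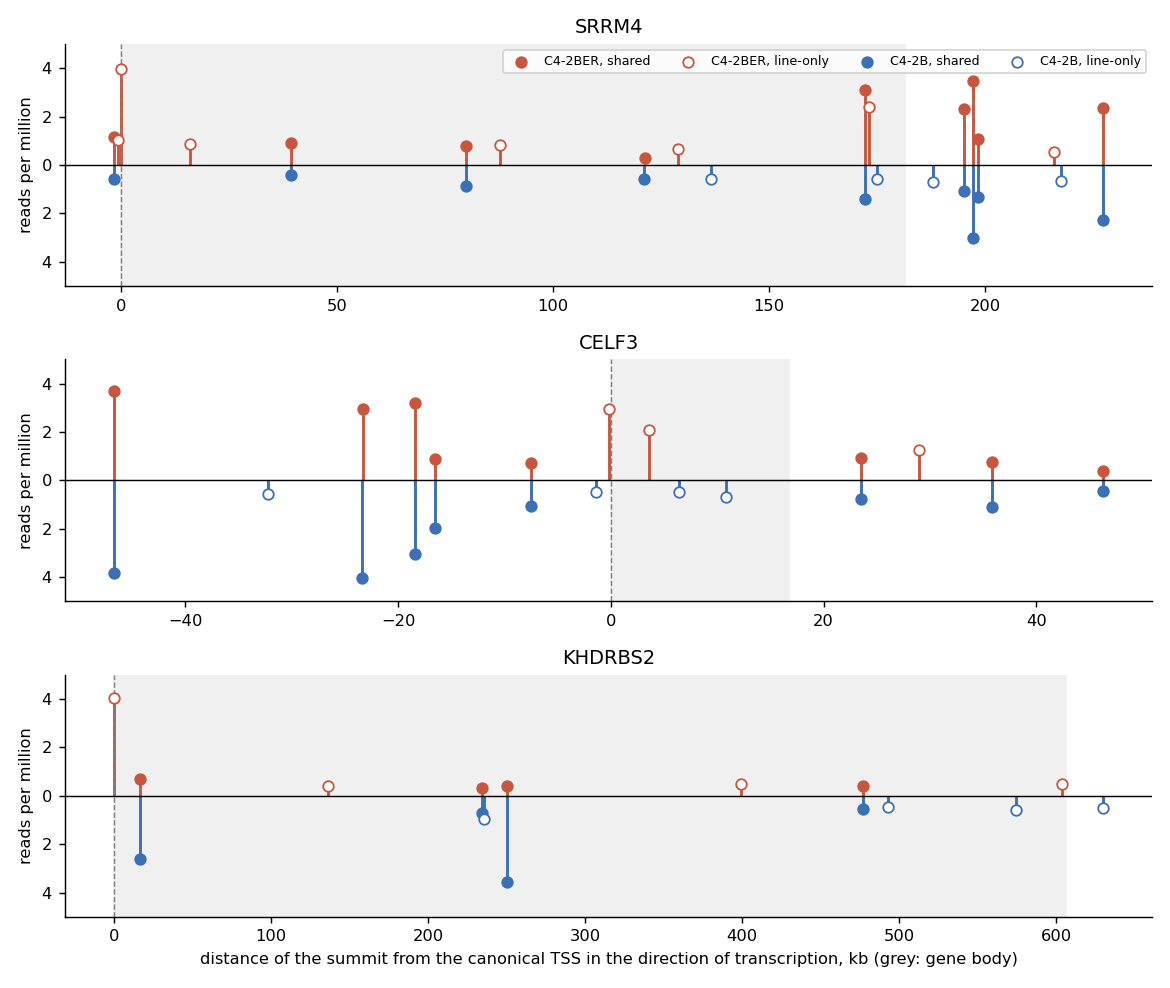
Intervals of the SRRM4, CELF3 and KHDRBS2 loci by distance from the canonical TSS in kb (x axis) and summit RPM (y axis, C4-2BER upwards, C4-2B downwards); filled points are shared, open points line-only, and grey marks the gene body. In each panel a tall open C4-2BER point stands at 0 kb. Close to it C4-2B has only a short point at SRRM4 (1612 bp upstream, 0.563 RPM) and at CELF3 (1399 bp upstream, 0.497 RPM). At KHDRBS2 there is no C4-2B point under it, and tall C4-2B points at 16.4 and 250.1 kb face short C4-2BER ones.

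SRRM3, the paralog of SRRM4, already had an open start in C4-2B. The promoter interval held 83 reads at percentile 87.6 in C4-2B and 85 reads at percentile 87.9 in C4-2BER, a ratio of 1.23 (0.895 to 1.68). Differences lay inside the gene and in its flanks. A C4-2BER-only interval 33.4 kb downstream of the TSS, chr7:76234905-76235561, held 101 reads at percentile 93.6 and overlapped a coding-transcript exon. A C4-2B summit would have been listed there from 20 reads on, at the same background scaled for depth. It was the only C4-2BER-only interval of a locus with 23, while 79.2% of the whole C4-2BER list was shared. In the reverse direction, an intron site 47.6 kb downstream held 145 reads at percentile 98.2 in C4-2B, the highest rank of the locus though not the most reads, and 43 reads at percentile 73.8 in C4-2BER. Its ratio was 0.355 (0.246 to 0.502).

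The sequence of the C4-2BER-only SRRM3 site is shown because it is the strongest line-only distal interval of any member, chr7:76235202-76235402, plus strand. Capitals mark the 7 bases at its summit. It is GC-rich, with a GC content of 70.1% and 21 CpG dinucleotides in 201 bases.
SRRM3: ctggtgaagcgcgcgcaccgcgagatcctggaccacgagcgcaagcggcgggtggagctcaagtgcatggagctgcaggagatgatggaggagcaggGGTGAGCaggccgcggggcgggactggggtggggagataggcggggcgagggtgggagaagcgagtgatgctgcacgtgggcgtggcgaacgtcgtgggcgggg

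Among 22 paired SRRM3 sites, 5 had a counting interval above 1 (5.33% of all pairs) and 2 had one below 1 (21.4%). In the gene body these were 3 and 1, and the others were flank sites, among them one 91.9 kb downstream of the TSS with 134 reads against 62, a ratio of 0.554 (0.403 to 0.753). The C4-2B list had 9 line-only intervals of 31, while 62.3% of the whole C4-2B list was shared. Several of the 9 lay beyond the 3′ end of the gene where the local background was high. The RE1-like match of SRRM3, 23.7 kb downstream of the TSS, lay in a shared intron interval with 26 reads in C4-2B (percentile 48.7) and 12 in C4-2BER (percentile 11.8), a ratio of 0.552 (0.254 to 1.13).

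The PTB pair, which exchange places during neuronal differentiation, showed no exchange of promoter accessibility. PTBP1 had 174 summit reads at percentile 89.1 in C4-2B and 164 at percentile 93.0 in C4-2BER, with a ratio of 1.13 (0.905 to 1.40). PTBP2 had 101 reads at percentile 91.2 and 90 reads at percentile 92.2, with a ratio of 1.07 (0.793 to 1.43). Both starts were thus open in both lines, and both ratio intervals include 1.

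Away from their own promoters, the paired sites in and around the PTB genes leaned in opposite directions. Over all 91168 pairs, 36316 were higher in C4-2BER and 54852 lower, with 5.33% of counting intervals above 1 and 21.4% below. In PTBP1 the 11 paired sites outside its own promoter all lay in the flanks, 6 upstream and 5 downstream, several at promoters of other genes. Of these, 8 were higher in C4-2BER, with 3 counting intervals above 1, of which 2 lay at promoters of other genes, and 0 below. The largest, 65.0 kb downstream at the promoter of CFD, had 40 reads against 137, a ratio of 4.10 (2.86 to 5.98). PTBP1 also had a C4-2B-only interval 3211 bp into the gene, within 2000 bp of an alternative start, with 123 reads at percentile 69.6 on a background 15.2 times the floor of that list. In PTBP2 the paired sites outside its own promoter were 2 in the gene body, 1 upstream and 2 downstream, with 0 at promoters of other genes. Of these PTBP2 sites, 5 of 5 were lower in C4-2BER, with 3 counting intervals below 1 and 0 above. Its strongest C4-2B site, 144 kb downstream, had 144 reads at percentile 97.2 against 64 at percentile 89.1, a ratio of 0.532 (0.390 to 0.719). An intron site 50.8 kb downstream had 51 against 13 reads. At PTBP2, 0 of 6 intervals of the C4-2BER list and 5 of 11 of the C4-2B list were line-only. Over the whole lists 79.2% and 62.3% were shared, and the rest were line-only.

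CELF3 has its canonical start inside a C4-2BER-only interval, chr1:151716688-151717130. It held 74 reads, 2.93 RPM (2.30 to 3.68), at percentile 84.5. C4-2B listed only a weak interval 1399 bp upstream with 15 reads at percentile 11.0, on a background of 3.38 reads. At the C4-2BER background of the start, scaled for depth, C4-2B would have listed a summit from 22 reads on. The C4-2B background at the start is not known, and a lower one would need fewer reads. C4-2BER-only intervals also lay 3.58 kb into the gene (53 reads, percentile 70.5) and 28.9 kb downstream of the TSS (32 reads, percentile 69.3). The shared sites of the flanks did not share this lean. In the upstream flank 4 of 5 paired sites were lower in C4-2BER and in the downstream flank 2 of 3, beside 54852 of all 91168 pairs. Among the upstream sites was the strongest C4-2B site, 23.4 kb upstream, with 122 reads against 74. The RE1-like match of CELF3, with 2 mismatches, lay wholly inside the C4-2BER start interval, 154 bp from its summit. No C4-2B interval held it, and the nearest C4-2B summit was 1092 bp away.

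KHDRBS2, which encodes a STAR-family RNA-binding protein, differed between the lists in both directions. In C4-2B there was no interval within 2000 bp of its single annotated start. In C4-2BER the interval chr6:62285802-62286787 covered it, with a summit 14 bp upstream, 102 reads, 4.04 RPM (3.30 to 4.91) and percentile 95.1. A C4-2B summit would have been listed from 17 reads on at this background.

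Inside the gene the order was reversed. An intron site 250.1 kb downstream of the TSS held 107 reads at percentile 98.1 in C4-2B and 10 reads at percentile 9.40 in C4-2BER. The ratio was 0.112 (0.0521 to 0.214), or 8.94-fold lower in C4-2BER. A further intron site 16.4 kb downstream held 79 reads at percentile 90.9 in C4-2B and 18 at percentile 48.1 in C4-2BER, a ratio of 0.273 (0.154 to 0.459). All 4 paired sites of the locus were lower in C4-2BER, as were 54852 of all 91168 pairs. The locus was the sparsest of the 10, with 8 intervals in either list over 706 kb, or 1.13 per 100 kb. The sequence of the site at 250.1 kb is shown because it had the lowest ratio among the 93 paired sites, chr6:62036048-62036248, written on the minus strand with the 7 summit bases in capitals. It has a GC content of 46.3% and 1 CpG dinucleotide in 201 bases, unlike the GC-rich start.
KHDRBS2: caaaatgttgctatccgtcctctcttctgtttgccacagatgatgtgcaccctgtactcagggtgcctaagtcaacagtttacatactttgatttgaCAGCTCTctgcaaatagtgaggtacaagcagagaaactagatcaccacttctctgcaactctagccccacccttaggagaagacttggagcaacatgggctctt

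NOVA1 was the member with a shared start whose counting interval excluded 1. Its start interval held 48 reads at percentile 68.7 in C4-2B and 69 reads at percentile 84.9 in C4-2BER, a ratio of 1.72 (1.17 to 2.54). The interval, chr14:26597542-26598656 in C4-2B and chr14:26597573-26598729 in C4-2BER, covered the canonical TSS in both lists. C4-2BER also listed a weak interval 771 bp downstream of the TSS with 26 reads at percentile 24.6. The other sites of the locus held fewer summit reads than the start interval in both lists. A site over an exon 149.4 kb downstream had 39 reads in C4-2B against 19 in C4-2BER. In C4-2B it ranked above the start interval, at percentile 72.3.

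The Hu genes ELAVL3 and ELAVL4 had no interval within 500 bp of the canonical TSS in either list. ELAVL3 had a strong shared interval whose summit lay 1164 bp upstream in C4-2B and 1166 bp upstream in C4-2BER. It held 182 reads at percentile 97.3 and 161 reads at percentile 96.3, a ratio of 1.06 (0.851 to 1.32). This interval contains the RE1-like match with 3 mismatches shown above, 236 and 238 bp from the summits. C4-2BER alone listed an interval 1387 bp downstream of the TSS with 81 reads at percentile 73.5. At its background, scaled for depth, a C4-2B summit would have been listed from 37 reads on.

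ELAVL4 had no promoter interval in C4-2B and 2 weak ones in C4-2BER, both at alternative starts. The interval at the start 61.3 kb upstream of the canonical TSS held 21 reads, 0.832 RPM (0.515 to 1.27), at percentile 56.6. The interval 888 bp downstream of the canonical TSS held 15 reads at percentile 36.7. The strongest site of the locus, with 89 C4-2B reads and 79 C4-2BER reads, lay at the promoter of the neighbouring gene AGBL4. An intron site 14.3 kb downstream held 42 reads at percentile 69.3 in C4-2B and 8 at percentile 1.94 in C4-2BER, a ratio of 0.228 (0.0924 to 0.491).

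Annotated starts closer than 500 bp to each other were joined, which gave 25 start groups over the 10 genes. Of these, 9 were open in both lists, 5 in C4-2BER only, 0 in C4-2B only and 11 in neither. The 5 were the canonical starts of SRRM4, CELF3 and KHDRBS2 and 2 alternative starts of ELAVL4. Among the 15 groups without a canonical start, 4 were open in C4-2B and 6 in C4-2BER. No background over the start groups of all genes was computed, so nothing is read from any of these start-group counts.

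Base composition of the promoters, which the selection did not use, varied widely among the members. Within 500 bp of the TSS, the observed over expected CpG ratio was 0.925 in REST, 0.969 in PTBP1, 0.810 in PTBP2, 0.915 in NOVA1 and 0.560 in SRRM3, the members open in both lists. In those open in C4-2BER only it was 0.603 in SRRM4, 0.302 in CELF3 and 0.703 in KHDRBS2, each below the median of 0.726 over all genes. SRRM3 was thus also below it. Of the members open in neither list, ELAVL4 was below it at 0.372 and ELAVL3 above it at 0.773. ELAVL4 had the lowest GC content of the 10, at 41.5%, against a median of 61.4% over all genes.

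Taking all sites together, 97 of the 142 C4-2B intervals were shared, or 68.3% (Wilson 95% interval 60.3 to 75.4), beside 62.3% of the whole list. Of the 119 C4-2BER intervals, 93 were shared, or 78.2% (69.9 to 84.6), beside 79.2% of the whole list. Of intervals at the members' promoters, 3 of 11 were line-only in C4-2B and 8 of 15 in C4-2BER, beside 16.2% and 13.6% of intervals at any protein-coding promoter in the whole lists. Of the other intervals of the loci, 42 of 131 were line-only in C4-2B (32.1%) and 18 of 104 in C4-2BER (17.3%), beside 41.9% and 22.5% of intervals away from promoters in the whole lists. These are not like terms. The loci counts keep intervals at promoters of neighbouring genes, which the whole-list shares leave out. There were 24 such intervals in C4-2B (3 line-only) and 21 in C4-2BER (1 line-only). The order of the 2 shared percentages depended on list size: with equal numbers of top intervals they were 74.6% and 72.3%. Nothing is read from the promoter counts, since the promoters are part of what the set was chosen on.

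**Figure D3:**
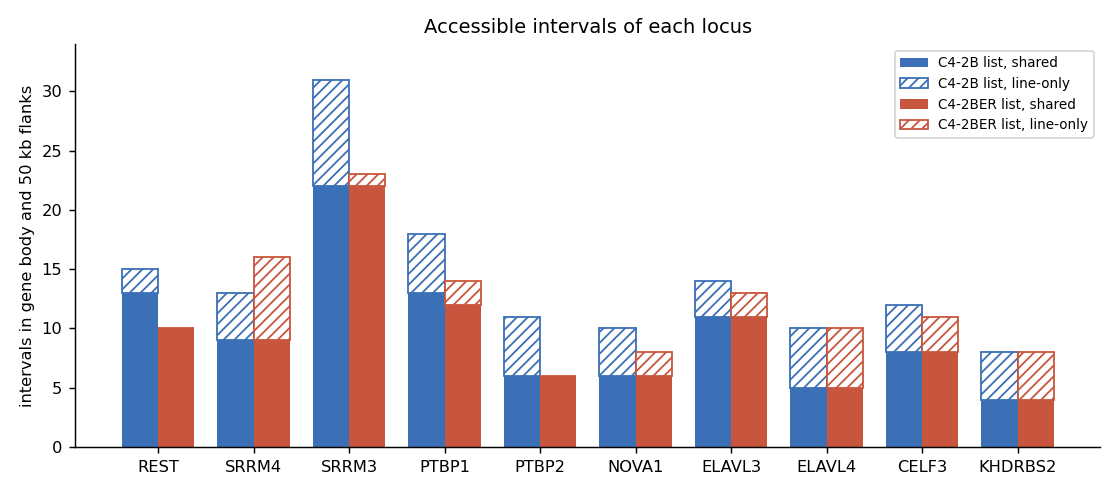
Number of accessible intervals in each gene body and its 50 kb flanks, by list, with solid bars for intervals shared with the other list and hatched bars for line-only ones. SRRM3 holds the most, 31 in C4-2B and 23 in C4-2BER, and REST and PTBP2 have no hatched C4-2BER part.

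Line-only intervals were mostly weak. Their median rank was the percentile 29.8 in C4-2B and 36.7 in C4-2BER, beside 27.1 and 23.5 for all line-only intervals of the lists. Those with a −log10 q of at least 10 numbered 14 of 45 in C4-2B and 10 of 26 in C4-2BER. Their share among all line-only intervals of the lists was not computed, so nothing is read from these counts. The 10 were 3 at CELF3, 2 at SRRM4, 2 at ELAVL3 and 1 each at KHDRBS2, SRRM3 and ELAVL4. Promoters of neighbouring protein-coding genes held 24 of the 142 and 21 of the 119 intervals, and 8 of the former lay in the PTBP1 locus. At the 50 kb border, PTBP1 had the closest C4-2BER summit, 68 bp inside with 137 reads, and an interval 432 bp outside with 64 reads. In C4-2B the closest summit was also at PTBP1, 94 bp outside with 40 reads, in an interval that reached inside the border. The closest excluded C4-2B interval was at SRRM4, 529 bp outside with 26 reads.

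For quantitative comparison, each C4-2B interval was paired with the C4-2BER interval where each was the strongest overlap of the other. The 10 loci gave 93 pairs. The median log2 ratio of RPM, C4-2BER over C4-2B, was 0.06 in the loci and -0.15 over all 91168 pairs. The C4-2BER value was the lower one in 44 of the 93 and in 54852 of all pairs. The counting interval lay above 1 in 15 of 93 (16.1%), beside 5.33% of all pairs, and below 1 in 12 of 93 (12.9%), beside 21.4%. The members were chosen on this contrast, so nothing is read from these shares. By locus, the intervals above 1 were 5 at SRRM3, 4 at SRRM4, 3 at PTBP1, 2 at ELAVL3 and 1 at NOVA1, and those below 1 were 3 at PTBP2, 2 each at SRRM3, REST, CELF3 and KHDRBS2 and 1 at ELAVL4. Line-only sites form no pair, so the starts of SRRM4, CELF3 and KHDRBS2 are not among these counts.

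**Figure D4:**
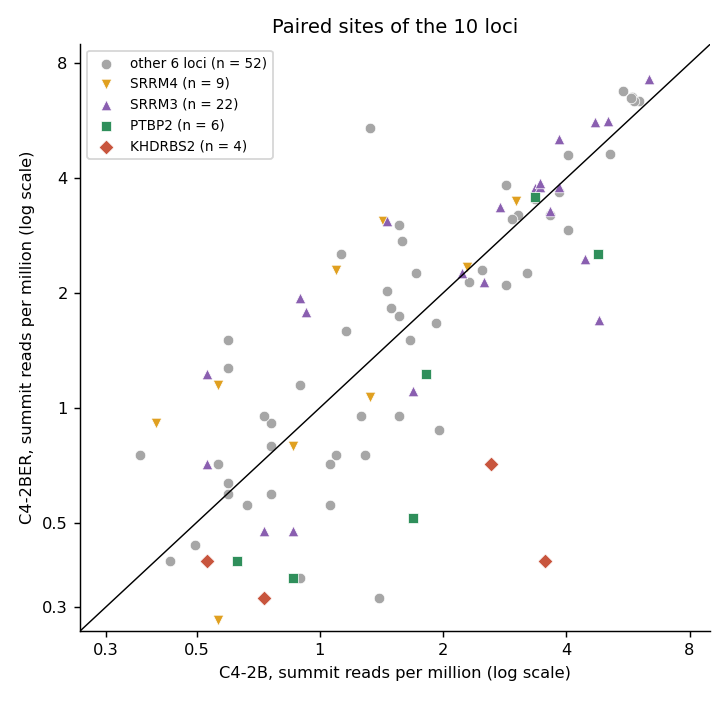
Summit RPM at the 93 paired sites of the 10 loci, C4-2B on the x axis and C4-2BER on the y axis, both on log scales, with the line of equality. All 4 KHDRBS2 sites and 5 of 6 PTBP2 sites lie below the line, and 6 of 9 SRRM4 sites lie above it.

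RE1-like sequences were accessible more often the closer they were to the consensus, in both lines. Over the genome, 24 perfect matches were found, of which 19 lay wholly within a C4-2B interval and 18 within a C4-2BER interval. With 2 mismatches (573 matches) the shares were 51.5% and 46.4%, and with 4 mismatches (16878) they were 8.24% and 6.86%. Among matches with at most 2 mismatches, 394 lay in intervals of both lists, 66 in the C4-2B list alone and 24 in the C4-2BER list alone. C4-2BER is the shallower list, and how far this sets its lower shares was not tested.

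**Figure D5:**
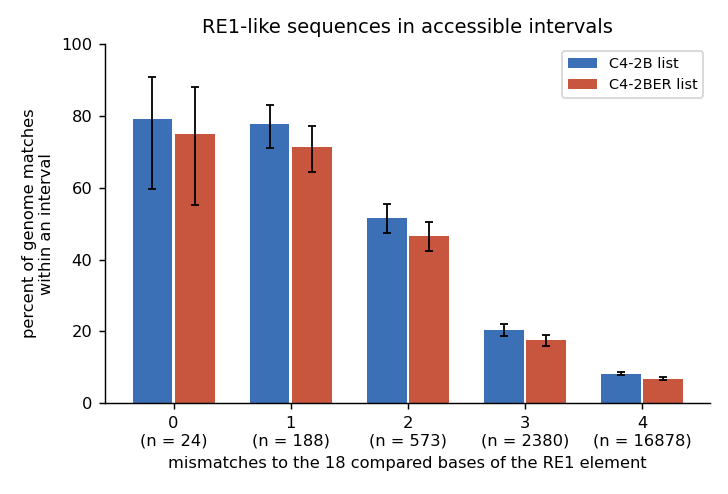
Percent of RE1-like sequences of the genome that lie wholly within an interval, by number of mismatches, with Wilson 95% intervals and the number of matches under each pair of bars. The share is highest for perfect matches (19 and 18 of 24) and lowest for 4 mismatches, 8.24% in C4-2B and 6.86% in C4-2BER.

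In the member loci, 6 of 142 C4-2B and 6 of 119 C4-2BER intervals held an RE1 match, beside 1.51% and 1.61% of the whole lists. Without intervals at promoters of other genes, here HSPB1 and ECSIT, 4 remained in each list. The loci held 5.76 matches per Mb, beside 6.49 in the genome. Of the 14 matches, 5 were inside intervals of both lists, 1 of C4-2B only (in the SRRM3 downstream flank, 4 mismatches), 1 of C4-2BER only (the CELF3 promoter) and 7 of neither. REST, PTBP2, ELAVL4 and KHDRBS2 held matches but none inside an interval, and PTBP1 and NOVA1 held no match. A match is a description of letters and not of REST binding.

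Other genes of the pathway, taken from lists of 20 relatives of the splicing regulators, 16 REST corepressors and 18 REST target genes, had a promoter interval in both lists in every case. The canonical TSS was open in both lists in 19 of 20 relatives and 16 of 16 corepressors. Among the targets, 17 of 18 were open in C4-2B and 17 of 18 in C4-2BER, with INA open in C4-2BER only and SCN2A in C4-2B only. The median rank difference, C4-2BER minus C4-2B in percentile points, was 0.811 for the relatives, 0.631 for the corepressors and 1.93 for the targets. Ranks were higher in C4-2BER for 11 of 20, 9 of 16 and 11 of 18. Single genes departed from the medians: NOVA2 stood at percentile 19.7 in C4-2B and 82.7 in C4-2BER, and RCOR2 at 80.5 and 66.0. Over all genes with a promoter interval in either list it was 0.604. The members, chosen for this contrast, had a median of 10.05, with ELAVL4 and KHDRBS2 counted at percentile 0 in C4-2B.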

How the data were processed

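ATAC-seq libraries of C4-2B and C4-2BER, 2 of each line by the labels, were analysed from the deposited MACS2 summit lists, 1 merged list per line. Per the study's methods, the authors aligned reads to hg38 with Bowtie2, removed duplicates, merged the replicates and called peaks with reads extended to 200 bp and a shift printed without a minus sign; the MACS2 version is not given in the sources used here. The submitters' notes also name FastQC, Picard and bedtools 2.17. The authors' fold enrichment, as deposited, divides summit reads by local background with 1 added to each, a ratio. The deposited −log10 p and −log10 q are those of the summit. A further deposited column of another kind gives the summit offset in bp. No column of values from a single library was left unused (0).

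Whole summit reads and background were recovered from fold and −log10 p. They solved 100% of summits, with a largest error of 0.000251 and 0.000259 in −log10 p. The lowest background, 2.24 reads per 200 bp in C4-2B and 1.87 in C4-2BER, gives the depth at a genome size of 2700000000 bp. Smallest listed summits held 8 and 7 reads, so weaker sites do not appear. An interval was counted once, with its summit of highest −log10 p, and was shared with 1 bp of overlap. Genes, exons and TSSs came from GENCODE, and all sequences from the hg38 genome. The read count from which a line-only site would have been listed in the other line is the smallest whose −log10 p reaches the lowest one in that list, at the same background scaled by depth. The other line's own background at such a site is not in its list, and a lower one would need fewer reads. Ratio intervals are exact binomial on the recovered reads, and shares carry Wilson 95% intervals; both cover counting error only.

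All 10 members are named, with their promoter intervals, strongest distal and line-only intervals. Other genes appear as list counts, and INA, SCN2A, NOVA2 and RCOR2 were named after their values were seen. So were HSPB8, HSPB1, CFD, AGBL4, ECSIT, NOA1 and POLR2B, where an interval lay at a neighbour's promoter. The members and lists were chosen with earlier results of these data known. Peaks were not called per library, so no test, SD or p-value was possible. Read recovery, overlap and motif search were tested on simulated data. Alternatives covered q thresholds, list sizes, flanks, overlap rules, promoter and TSS windows, rank measures and RE1 mismatches. Python 3.11.15, numpy 2.4.6, pandas 2.3.3, scipy 1.17.1, pysam 0.24.0 and samtools 1.23.1 were used.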

Additional observations from a re-analysis of the deposited data

How the results depend on the processing

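Of 84 alternative values, 66 stayed within 1.5 times the reported count or inside its counting interval and 18 did not. The members open at the canonical TSS stayed at 5 in C4-2B and at 8 in C4-2BER under every q threshold and list size. They became 6 and 10 with a window of 1000 bp. The number of members ranked higher in C4-2BER stayed between 8 and 10.

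A −log10 q of at least 5 left 60.2% of the C4-2B member-locus intervals shared. At 10, the loci held 88 and 70 intervals in C4-2B and C4-2BER, and 4 members had a promoter interval in C4-2BER only, because the weak C4-2B intervals of SRRM4 and CELF3 dropped out. A promoter window of 1000 bp also gave 4. Among the top 50000 intervals of each list the order of the lines turned: C4-2B held 46 and C4-2BER 61, with 82.6% and 62.3% shared, and 3 C4-2B intervals had an RE1 match. Flanks of 10 kb left 74 and 64 intervals, 3 of the C4-2B ones with an RE1 match, and flanks of 100 kb gave 10 such C4-2B intervals. Under a reciprocal overlap of 50%, 55.6% and 66.4% were shared. With 5 mismatches allowed, 17 intervals of either list held an RE1 match.

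No paired analysis was possible because each deposited list holds the merged libraries of a line, and leaving out a library had the same obstacle. Depth limits the absences, since a list holds no site below its lowest −log10 p, and the C4-2BER list is the shallower.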
